A study of Rattus norvegicus with 8 samples.

Results

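The interferon response and antigen processing genes described here are 32 rat genes: interferon-induced antiviral effectors (Ifit1, Ifit2, Ifit3, Isg15, Oas1a, Oas2, Oasl, Mx1, Mx2, Rsad2, Bst2, Ifi27, Gbp2, Cxcl10), a viral RNA sensor (Ifih1), transcription factors (Irf1, Irf2, Irf3, Irf7, Irf8, Irf9, Stat2), inhibitors of interferon signalling (Usp18, Socs1) and genes of class I antigen processing (Psmb8, Psmb9, Psmb10, Tap1, Tap2, Tapbp, B2m, Nlrc5). They were listed by name, and their probes were found by matching the transcript accession of each array probe to RefSeq transcripts of the listed symbols. Of the 32 genes, 31 had a probe by this matching and Nlrc5, a transactivator of class I genes, had none; the 31 were read by 38 probes, of 45598 gene probes and 16581 symbols in all. The test was limited to probes that the scanner software rated well above background on 3 or 4 arrays of either group, which held for 27 members. Ifit1, Ifit2, Ifit3 and Cxcl10 were too dim.

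The arrays measured RNA from retinas of Lister hooded rats taken at postnatal day 0 and electroporated in vitro. The control group received a control plasmid and the other group a plasmid encoding Klf4, a zinc-finger transcription factor. The explants of both groups were kept in culture for 39 hours and dissociated, and the GFP-positive, transfected cells were sorted by flow cytometry. Each group had 4 one-colour arrays, numbered 2 to 5. The promoter that drives Klf4, the number of retinas behind each array and whether the replicates came from separate litters are not given in the labels, and the p-values therefore cover only the variation among these samples, part or all of which may be technical.

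Interferons are secreted proteins that bind receptors on the cell surface and act through JAK kinases. Type I interferons activate a complex that contains STAT2 and IRF9 and binds interferon-stimulated response elements, while interferon gamma acts through gamma-activated sites and induces IRF1. Their target genes block steps of viral replication and raise antigen processing: the immunoproteasome subunits encoded by Psmb8, Psmb9 and Psmb10 replace the catalytic subunits of the constitutive proteasome, TAP1 and TAP2 carry the resulting peptides into the endoplasmic reticulum, and tapasin (Tapbp) loads them onto class I molecules bound to beta-2 microglobulin. Many of these genes, though not all, are known for low levels in neural tissue of a healthy newborn.

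Levels are given as log2 of the scanner software's processed signal minus the 75th percentile over gene probes of the same array, and a change is the mean of the arrays labelled Klf4 minus that of the controls on this log2 scale. The number of arrays limits the precision. From 72.1% to 86.5% of gene spots per array were well above background and none was saturated. The arrays numbered 5 were scanned apart from the rest, and control and Klf4 arrays sat in alternate columns of the slide, so column and group cannot be told apart. Both arrays numbered 4 fell outside the software's own quality range. All 17 retinal cell markers on the list could be tested; Ptf1a, an amacrine and horizontal cell factor, was called higher by 0.68 (adjusted p = 0.0468), and the photoreceptor genes Crx and Rbp3 were called lower, by -0.84 and -1.10 (adjusted p = 0.0378 and 0.0154). The probe for Klf4 itself did not separate the groups: it read -3.27 ± 0.62 (SD, n = 4) in controls and -3.00 ± 0.86 on the arrays labelled Klf4 (limma adjusted p = 0.916). The labels do not say which species' sequence or which part of the transcript the plasmid carries, and the probe's sequence is not used here, so this reading does not check the labels, on which every direction below rests.

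A small subset of these genes rose and none fell. Bst2, Oasl, Irf1, Psmb8 and Psmb9 were higher on the arrays labelled Klf4 by limma's moderated test, with p-values adjusted by Benjamini-Hochberg over 29988 genes and unnamed probes and a threshold of 0.05. These 5 of 27 tested members stood beside 3.2% of everything tested called higher, and the 0 members called lower beside 0.467% called lower. The members were chosen with earlier results of these data known, so these shares describe the list and do not test it. At an unadjusted p under 0.05, 10 members were higher and 0 lower, beside 6.63% and 5.3% of all features. The median change over the 27 members was 0.17, beside -0.07 over all features. Changes were above 0 in 18 members and below it in 9, while 39.0% of all features were above 0. In 9 members all 4 arrays labelled Klf4 lay above all 4 controls, which was the case for 5.74% of all features, and in 0 members did they all lie below, which was the case for 4.48%. The 5 called genes, Gbp2 and Isg15 differed by more than 1 log2 unit, all upwards, and the other 20 stayed within 1. Oasl was the called member that reached the test through the arrays labelled Klf4 alone.

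**Figure D1:**
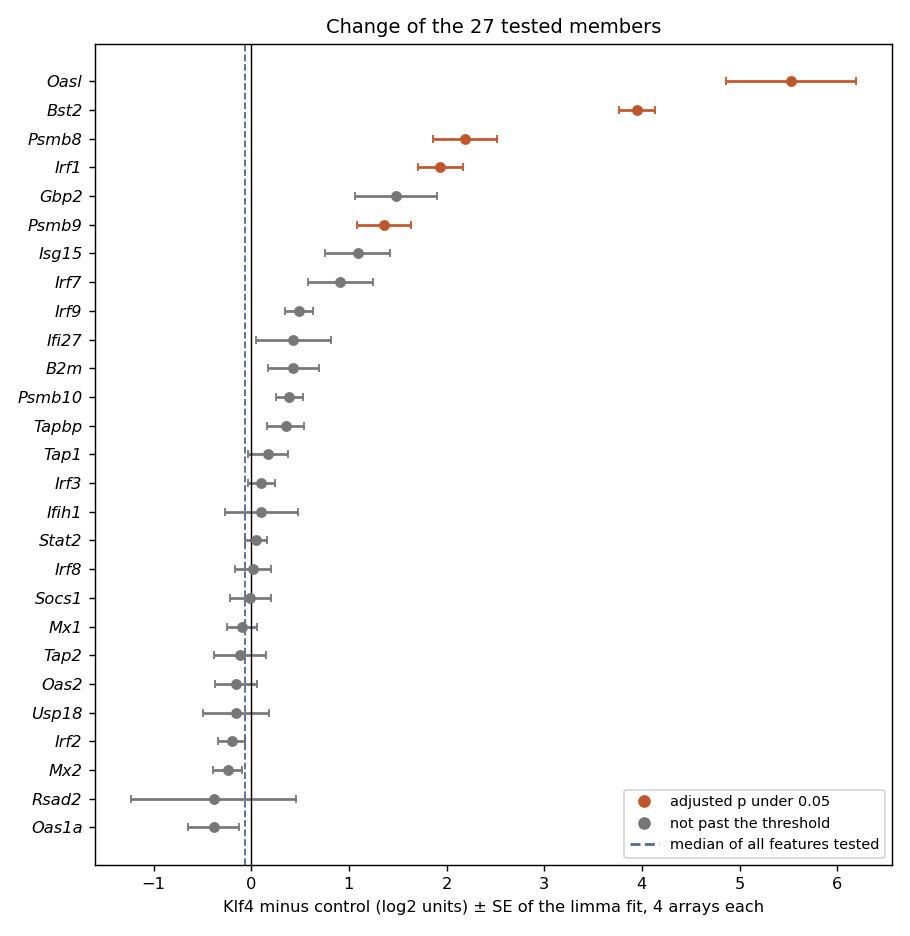
Change of each of the 27 tested members, as the mean log2 signal of the 4 arrays labelled Klf4 minus that of the 4 controls, with the standard error from limma as bars. The genes that passed the adjusted threshold lie to the right, from Oasl at 5.53 down to Psmb9 at 1.36. Gbp2 at 1.49, Isg15 at 1.09 and Irf7 at 0.91 did not pass, and the remaining members lie between -0.39 and 0.49.

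Bst2 had the smallest p of the members. It encodes tetherin, a membrane protein that holds budding virus particles at the cell surface. The control arrays numbered 2 to 5 read -3.06, -2.77, -2.77 and -3.10, and the arrays labelled Klf4 read 1.32, 0.65, 0.92 and 1.22. The groups were far apart, and the gap between them was many times the spread within either. Its change was 3.95 ± 0.18 (SE), a 15.4-fold difference (limma adjusted p = 7.11e-05). Bst2 passed the threshold in all 21 alternative analyses.

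Oasl encodes a relative of the oligoadenylate synthetases that takes part in antiviral signalling. On every control array its probe fell short of the well-above-background mark, at -8.61, -7.03, -7.46 and -6.68, and it passed that mark on all 4 arrays labelled Klf4, at -1.12, -2.43, -3.52 and -0.59. The groups did not overlap, and the array numbered 4 was the lowest of its group. Because the control level is only a bound, the difference of means in this processed signal was at least 15.9-fold, or 3.99 log2 units. This bound takes for each control array the higher of the probe's own signal and the lowest signal of any probe well above background. It holds for this background correction only and includes no sampling error. The gene entered the test only through the group in which it is high, which bears on its limma adjusted p of 0.00229; with no filter on dim probes the adjusted p was 0.00474. With another background correction, normexp on the spot medians, the fitted change fell from 5.53 to 2.30, less than that bound, and stayed past the threshold. The 2 other tested members of the same family did not follow: Oas1a changed by -0.39 (SE 0.26, adjusted p = 0.680) and Oas2 by -0.16 (SE 0.21, adjusted p = 0.881), both with overlapping groups. Outside the members, its relative Oasl2 changed by 0.59 (SE 0.30, limma adjusted p = 0.514). Oas1b, Oas1f, Oas1i, Oas1k and Oas3 changed by -0.45 to -0.02, and the groups overlapped in all of these genes. Probe sequences are not used here, so cross-hybridization among related Oas genes was not tested.

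Irf1 was the transcription factor that rose. IRF1 is induced by interferon gamma and activates, among others, the genes of the immunoproteasome and of peptide transport. Controls read -0.34, -0.07, 0.27 and -0.28, and arrays labelled Klf4 read 2.11, 1.65, 1.34 and 2.23. Every array labelled Klf4 was more than 1 unit above every control, and the array numbered 4 was again the lowest of its group. The change was 1.94 ± 0.23 (SE), or 3.83-fold (limma adjusted p = 0.00221), and it passed in all 21 alternative analyses.

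The other transcription factors did not pass. Irf9, the DNA-binding subunit of the type I interferon complex, was at 0.53, 0.60, 0.90 and 0.72 in controls and at 1.22, 0.97, 1.40 and 1.11 with Klf4. These groups did not overlap, but the change of 0.49 ± 0.14 (SE) had an adjusted p of 0.153; the gene's second probe gave 0.45. Irf7, which amplifies type I interferon production, read -3.38, -3.41, -2.96 and -3.76 in controls and -2.62, -1.47, -2.82 and -2.95 with Klf4. Its lowest array labelled Klf4 was almost level with its highest control, and the array numbered 3 lay well above the rest; the change was 0.91 ± 0.33 (limma adjusted p = 0.285). Stat2, which joins IRF9 in the type I interferon complex, was flat, between 1.16 and 1.27 in controls and between 1.14 and 1.37 with Klf4, a change of 0.04 (SE 0.11, adjusted p = 0.956). Irf2, which can oppose IRF1 at shared sites, changed by -0.20 (SE 0.14), Irf3, the factor activated downstream of nucleic acid sensors, by 0.10 (SE 0.14; its other probe gave -0.21), and Irf8, a factor of myeloid cells, by 0.02 (SE 0.19), with adjusted p from 0.687 to 0.991.

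Within antigen processing, 2 of the 3 immunoproteasome subunits rose and the peptide transporter genes did not pass. Psmb8 read -3.65, -3.66, -3.46 and -4.07 in controls and -1.10, -1.58, -2.48 and -0.93 on the arrays labelled Klf4. The groups were separated by about 1 unit at their closest, between the control and the Klf4-labelled array that both carry the number 4. The change was 2.19 ± 0.33 (SE), or 4.55-fold (limma adjusted p = 0.00724), and it missed the threshold only in the 6 arrays of the first scan (adjusted p = 0.0566).

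Psmb9 moved less and rested on a thinner margin. Its controls were at -3.99, -3.62, -3.16 and -3.36, and its Klf4-labelled arrays at -1.92, -2.01, -2.91 and -1.85. The array numbered 4 stood apart from the other 3 of its group and came close to control replicate 4. The change was 1.36 ± 0.28 (SE), or 2.56-fold (limma adjusted p = 0.0326). The call was lost when any 1 array other than Klf4 replicate 4 was left out (adjusted p from 0.0524 without control replicate 4 to 0.114 without Klf4 replicate 2), and it held in 9 of 21 alternative analyses.

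Psmb10, the remaining subunit, read 1.03, 1.19, 1.12 and 1.40 in controls and 1.58, 1.50, 1.44 and 1.78 with Klf4. The groups lay next to each other without overlap, and the change was 0.39 ± 0.14 (SE; limma adjusted p = 0.261). The 3 constitutive catalytic subunits that these replace, picked out here after their values were seen, gave 0.03 for Psmb5, 0.17 for Psmb6 and 0.22 for Psmb7, with adjusted p from 0.663 to 0.978.

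Tap1, a subunit of the peptide transporter, ran from -4.29 to -3.63 in controls and from -4.09 to -3.55 with Klf4, so the groups overlapped almost entirely, and it changed by 0.17 (SE 0.20, adjusted p = 0.851). Its other probe, well above background on 1 control and 3 Klf4-labelled arrays, gave 1.24 (SE 0.55); this was not past the threshold either (adjusted p = 0.422 over all probes), but the probes differ by more than 1 unit. Tap2, the other subunit, changed by -0.11 (SE 0.27), with its second probe at -0.18. Tapbp changed by 0.35 (SE 0.19), and B2m, the invariant light chain of class I molecules, by 0.43 (SE 0.26), with adjusted p of 0.556 and 0.630. B2m spread widely among controls, from 0.11 to 1.37, and narrowly among the arrays labelled Klf4, from 0.996 to 1.16.

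**Figure D2:**
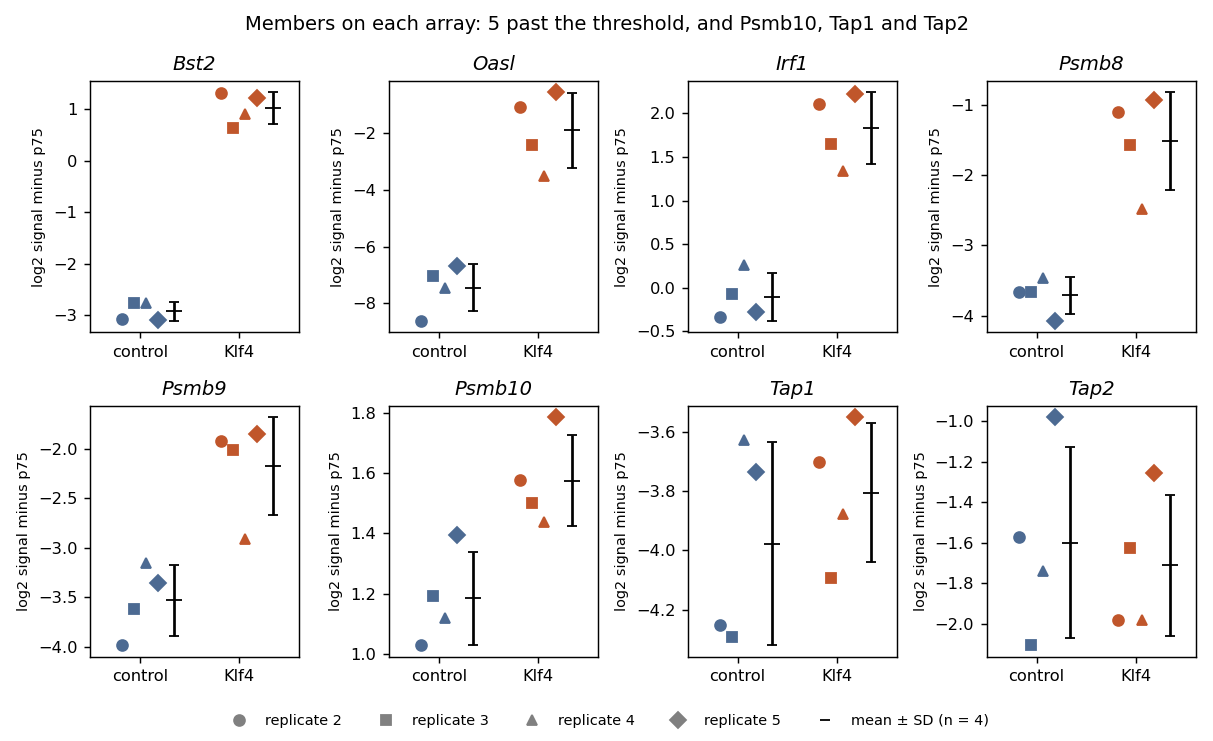
Log2 signal minus the 75th percentile on each array for Bst2, Oasl, Irf1, the immunoproteasome genes Psmb8, Psmb9 and Psmb10, and the transporter genes Tap1 and Tap2. Marker shapes give the replicate number, and the dash and bar give the mean ± SD (n = 4 per group). The groups are apart in the first 6 genes, with replicate 4 lowest among the Klf4-labelled arrays for Oasl, Irf1, Psmb8, Psmb9 and Psmb10, and overlap for Tap1 and Tap2.

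The stretches before the start sites of 4 of the called genes are shown because all 4 genes were called higher. They come from RefSeq (rat assembly GRCr8; 24 of the 32 members have an entry) and are written 5′ to 3′ on the gene's own strand, ending at the start site or, for Psmb8 and Psmb9, at the edge of the annotated gene. For Oasl nearly all of the window lies inside the annotated gene, and it is not printed. Capitals mark matches on either strand to GAAANNGAAA, a core of the interferon-stimulated response element, and to CCACNCCC, the CACCC box bound by Klf factors.
Bst2, chr16:18254968-18255217, minus strand: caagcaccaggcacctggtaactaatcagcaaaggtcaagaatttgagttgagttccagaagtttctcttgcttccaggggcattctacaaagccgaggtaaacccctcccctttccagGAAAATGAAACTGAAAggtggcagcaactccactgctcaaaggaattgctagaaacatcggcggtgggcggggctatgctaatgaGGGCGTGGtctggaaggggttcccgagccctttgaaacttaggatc
Irf1, chr10:38417685-38417934, plus strand: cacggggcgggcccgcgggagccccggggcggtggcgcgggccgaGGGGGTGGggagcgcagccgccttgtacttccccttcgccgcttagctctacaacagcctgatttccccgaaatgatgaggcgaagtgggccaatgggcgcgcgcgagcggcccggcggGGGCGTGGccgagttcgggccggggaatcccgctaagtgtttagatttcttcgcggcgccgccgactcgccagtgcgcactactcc
Psmb8, chr20:4657050-4657281, minus strand: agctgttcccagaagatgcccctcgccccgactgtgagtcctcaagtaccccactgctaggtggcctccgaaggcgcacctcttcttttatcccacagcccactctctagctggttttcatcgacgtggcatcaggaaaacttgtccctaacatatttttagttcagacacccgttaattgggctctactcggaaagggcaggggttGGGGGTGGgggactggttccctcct
Psmb9, chr20:4668750-4668951, plus strand: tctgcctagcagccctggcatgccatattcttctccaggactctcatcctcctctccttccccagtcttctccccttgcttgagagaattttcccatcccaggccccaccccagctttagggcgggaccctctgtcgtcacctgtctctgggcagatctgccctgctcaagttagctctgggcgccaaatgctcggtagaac

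Bst2 holds 2 overlapping response-element matches, at positions -131 to -122 and -125 to -116 counted from the start site, and a CACCC match at -46 to -39. In Irf1 the matches are both CACCC boxes, at -205 to -198 and -86 to -79; in Psmb8 there is 1, at -43 to -36. Psmb9 holds neither motif in this window. Another motif, TTCNNNGAA, the core of the gamma-activated site, was matched in Irf1 at -142 to -134, in Bst2 at -137 to -129, where it overlaps the first response-element match, and in Psmb8 at -245 to -237.

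Response-element matches lay mostly in members that were not called, as did most of the windows. In windows of 250 bases, GAAANNGAAA was found in 15 of the 24 members and in 3.41% of 33469 windows of all genes. Of the 5 called genes it was in Bst2 alone, but only 33 bases of the Oasl window lie outside the annotated gene. The others that held it include Tap1, Tap2, Tapbp, B2m, Psmb10, Rsad2, Oas1a and Socs1, none of which passed the test. In Oas1a, Tapbp and Irf7 the matches lie inside the annotated gene, so the windows of called and uncalled members are not alike. Psmb9 and Tap1 are read in opposite directions from starts 456 bases apart, and the match in the Tap1 window lies 336 to 345 bases from the Psmb9 start, outside the Psmb9 window. CACCC matches were in 8 of 24 members and 13.6% of all windows, and TTCNNNGAA in 7 of 24 members and 7.67% of all windows. Both were held by uncalled members as well. These were Gbp2, Irf8, Irf9, Mx1 and Stat2 for CACCC, and Irf8, Irf9, Oas1a and Socs1 for TTCNNNGAA. A match is a string of letters and not a bound site.

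Most classical interferon-induced effectors did not pass the test. Isg15, a ubiquitin-like protein attached to other proteins, read -3.76, -3.75, -3.29 and -3.61 in controls and -3.01, -1.52, -2.44 and -3.07 with Klf4. All arrays labelled Klf4 were above all controls, but they were spread over more than 1 unit, with the array numbered 3 highest; the change was 1.09 ± 0.33 (SE; limma adjusted p = 0.168). Gbp2, a guanylate-binding GTPase induced by interferon gamma, was near background, well above it on 2 controls and 3 Klf4-labelled arrays. It read -5.31, -5.01, -5.79 and -6.38 in controls and -3.78, -3.52, -5.25 and -4.00 with Klf4, so that the array numbered 4 alone overlapped the controls. The change was 1.49 ± 0.42 (SE; limma adjusted p = 0.128), and without Klf4 replicate 4 the adjusted p was 0.0183.

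Mx1 and Mx2, dynamin-like GTPases that block viral nucleocapsids, changed by -0.09 (SE 0.15) and -0.24 (SE 0.15), with adjusted p of 0.916 and 0.632. For Mx1 the arrays labelled Klf4 ran from 1.24 to 1.81 and reached past the controls, from 1.45 to 1.78, at both ends. Rsad2, which encodes viperin, was the most scattered of the tested members. It read -3.99, -2.92, -5.09 and -3.00 in controls and -4.92, -1.66, -4.42 and -5.54 with Klf4. Its change of -0.38 had an SE of 0.84 (limma adjusted p = 0.943), larger than the change itself, so neither a direction nor a size can be given. Ifi27, a membrane protein induced by type I interferon, changed by 0.43 (SE 0.38, adjusted p = 0.780), and Ifih1, the sensor MDA5, by 0.10 (SE 0.37, adjusted p = 0.972), from a probe well above background on 3 controls and 2 Klf4-labelled arrays.

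The inhibitors of signalling did not pass either. Usp18, which removes ISG15 from its targets and blocks the type I receptor, ran from -3.32 to -2.59 in controls and from -3.98 to -2.33 with Klf4, and changed by -0.16 (SE 0.34, adjusted p = 0.941). Socs1, which inhibits JAK kinases, changed by -0.01 (SE 0.21, adjusted p = 0.995). Among the untested members, Ifit1 was not well above background anywhere. Ifit2 and Cxcl10 were above it on 1 control and 0 Klf4-labelled arrays, and Ifit3 on 1 of each. The IFIT proteins bind viral RNA and CXCL10 draws lymphocytes, and no level can be given for these genes here.

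**Figure D3:**
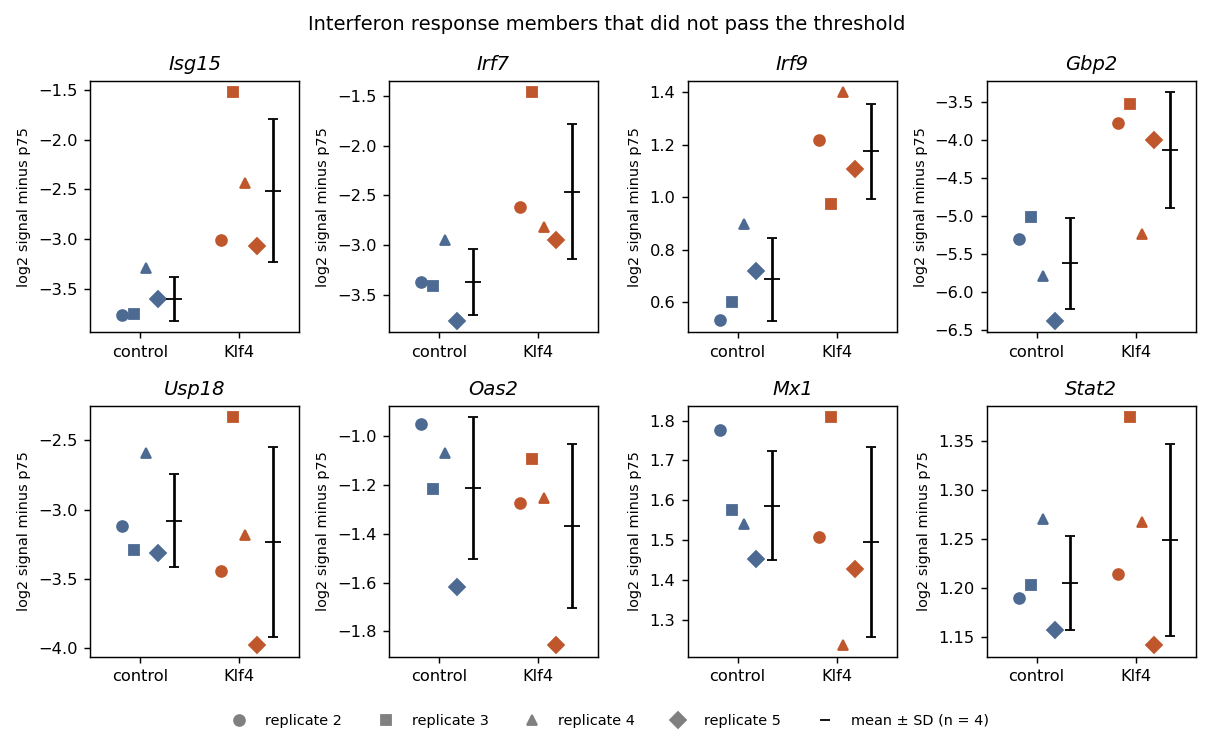
Log2 signal minus the 75th percentile on each array for 8 members that did not pass the threshold: Isg15, Irf7, Irf9, Gbp2, Usp18, Oas2, Mx1 and Stat2. Shapes give the replicate number, and the dash and bar the mean ± SD (n = 4 per group). All arrays labelled Klf4 lie above all controls for Isg15, Irf7 and Irf9, replicate 4 alone overlaps the controls for Gbp2, and the groups overlap in the lower row.

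The order of the arrays within a group differed between sets of members. Among the 4 arrays labelled Klf4, replicate 3 was the highest for 10 of the 27 members, among them Isg15, Irf7, Rsad2, Usp18, Stat2, Mx1 and Oas2. Replicate 5 was the highest for 8, which include Oasl, Irf1, Psmb8, Psmb9, Psmb10, Tap1 and Tap2. Replicate 5 was also the lowest for 11, among them Isg15, Irf7, Rsad2 and Usp18. Replicate 4, 1 of the arrays outside the quality range, was the lowest for 9, among them Oasl, Irf1, Psmb8, Psmb9, Psmb10 and Gbp2. Bst2 followed neither order, with replicate 2 highest and replicate 3 lowest. Among the controls, replicate 4 was the highest for 14 members and replicate 5 the lowest for 15. These orders are a description of 4 arrays per group and were not tested.

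The called members kept their direction in both scans. From the first scan, with 3 arrays a group, to the second, with 1, the change was 3.83 and 4.32 for Bst2, 1.75 and 2.50 for Irf1, 1.87 and 3.14 for Psmb8, and 1.31 and 1.50 for Psmb9. With 1 array a group, the second scan has no spread of its own. For Oasl, at background in controls, the arrays labelled Klf4 were above the controls in both. With scan as a block the same 5 members were called, and in the first scan alone 3 were: Bst2, Irf1 and Oasl.

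The wider pathway was given by 7 lists of 163 further genes, also chosen with earlier results of these data known. Of 122 that could be tested, 7 were higher and 0 lower, beside 3.2% and 0.467% of all features, with a median change of 0.12. Tlr3 and Irgm were among these 7 through the arrays labelled Klf4 alone, on which their probes met the background filter. The counts by list that follow are of 1 to 4 genes each and stand beside the same shares. The list of other interferon-induced genes also holds the member Oas1a, which is not among the 122. Of 8 tested interferons and receptors 1 rose, Ifngr1, which encodes the ligand-binding chain of the interferon gamma receptor. It read 0.86, 0.87, 0.75 and 0.87 in controls and 1.64, 1.38, 1.56 and 1.86 with Klf4. These groups were well apart and the controls nearly equal; the change was 0.77 ± 0.14 (SE; limma adjusted p = 0.0156), and it passed in 15 of 21 alternative analyses, with an adjusted p of up to 0.0729 in the others. Its partner chain Ifngr2 was above the controls on every array labelled Klf4, by 0.56 ± 0.20 on average, without passing (adjusted p = 0.259). Ifnar1, a chain of the type I receptor, was below the controls on every such array, by -0.65 ± 0.23 (adjusted p = 0.268), and Ifnar2 had no matched probe. Among the interferons, the probe of Ifng was not well above background anywhere, so that no level can be given. Ifnb1 changed by -0.27 (SE 0.35, limma adjusted p = 0.868), Ifna4 by -0.16 and Ifnk by -0.79. Ifna2 changed by 1.20 (SE 0.51, limma adjusted p = 0.399) with overlapping groups. Its probe was well above background on 2 controls and 3 Klf4-labelled arrays. At an unadjusted p under 0.05, 4 of the 8 interferons and receptors were higher and 1 lower, beside 6.63% and 5.3% of all features.

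None of the 11 genes that carry or restrain the signal from these receptors was called. The kinase genes Jak1, Jak2 and Tyk2 changed by -0.19, 0.29 and -0.06, with adjusted p from 0.328 to 0.971. At an unadjusted p under 0.05, 2 of the 11 were higher and 1 lower, beside 6.63% and 5.3% of all features.

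Of 11 tested nucleic acid sensors and adaptors, Tlr3, the receptor for double-stranded RNA, was higher, by 1.51 ± 0.20 (SE; adjusted p = 0.00426), on a probe well above background on 2 controls and 3 Klf4-labelled arrays. With no filter its adjusted p was 0.00945; with normexp its change was 0.57 and it did not pass. Of 38 other interferon-induced genes 4 were called higher: Irgm by 2.03 (adjusted p = 0.0291), an immunity-related GTPase read well above background on 2 controls and 3 Klf4-labelled arrays, whose call was lost with no filter (adjusted p = 0.0526); Dtx3l by 1.49 (adjusted p = 0.0266), a ubiquitin ligase; Cmpk2 by 1.34 (adjusted p = 0.00848), a mitochondrial nucleotide kinase; and Ube2l6 by 0.72 (adjusted p = 0.0313), the enzyme that conjugates ISG15. The rise of Cmpk2 stood beside no call for its genomic neighbour Rsad2: all 4 arrays labelled Klf4, between -1.69 and -0.998, lay above the controls, between -2.86 and -2.28. In 20 of 21 alternative analyses Cmpk2 passed, against 16 of 21 for Dtx3l, 12 of 21 for Ube2l6 and 9 of 20 for Irgm.

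Of 21 tested class I presentation genes outside the members, RT1-CE5, a class I heavy chain gene, was higher by 1.71 ± 0.36 (SE; adjusted p = 0.0387). It belongs to a family of near-identical genes whose transcripts may share this probe, and it passed in 10 of 21 alternative analyses; with scan as a block its adjusted p was 0.0549. The proteasome activator genes Psme1 and Psme2, picked out here after their values were seen, were above the controls on every array labelled Klf4, by 0.52 and 0.43, and did not pass (adjusted p = 0.0841 and 0.0876). None of 10 tested class II genes was called, with a median of -0.07. At an unadjusted p under 0.05, 1 was higher and 1 lower, beside 6.63% and 5.3% of all features. None of 24 constitutive proteasome genes was called, with a median of 0.16 and 0 at an unadjusted p under 0.05. Of the 24 changes 22 were above 0, beside 39.0% of all features.

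**Figure D4:**
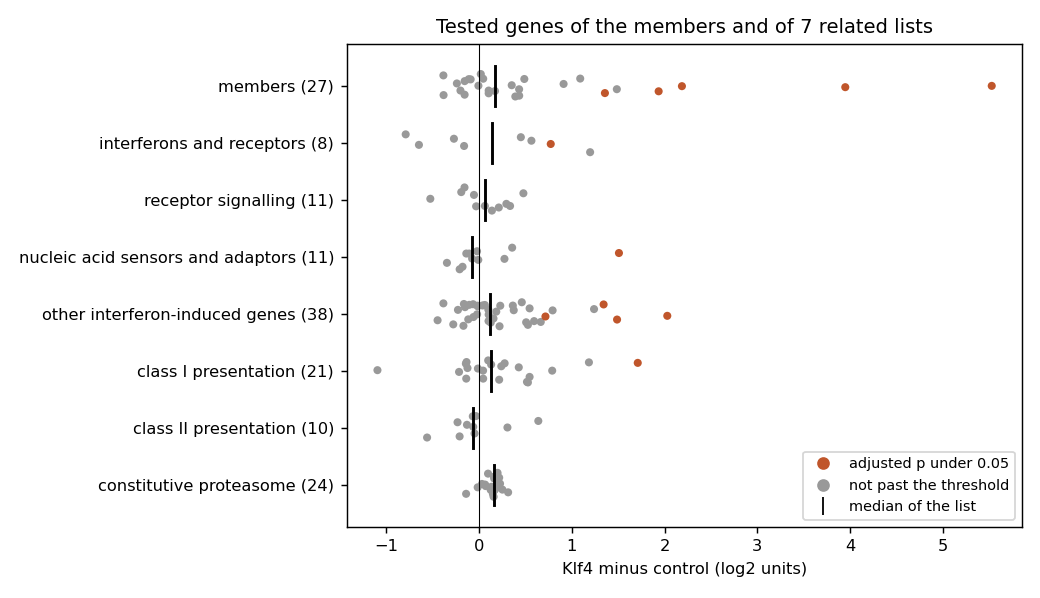
Change of every tested gene in the members and in the 7 other lists of the pathway, as mean log2 signal of the arrays labelled Klf4 minus the controls, with the median of each list marked. Oas1a appears both among the members and among the other interferon-induced genes. The medians lie between -0.08 and 0.17; the members reach 5.53, while the other lists reach at most 2.03.

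The sorted cells could include other cell types that express these genes, and in RNA from a mixed population a change in the number of such cells and a change in RNA per cell cannot be told apart. The counts of called markers that follow stand beside 3.2% of all features called higher and 0.467% called lower. Those at an unadjusted p under 0.05 stand beside 6.63% of all features higher and 5.3% lower. Of 15 tested microglia and macrophage markers 1 was higher, C1qb, by 1.04 (limma adjusted p = 0.0242), and Ptprc and Mrc1 were not well above background anywhere. The log2 of their summed level, over the 17 with a value on every array, ran from 2.96 to 3.62 in controls and from 3.22 to 3.52 with Klf4. Cd68, left out of this sum for missing values, changed by 1.94 with an SE of 1.81. Of 6 tested T cell and NK cell markers 0 were called (0 at an unadjusted p under 0.05). Cd3e, Cd8a, Cd2 and Prf1 were not well above background on any array. The sums were 2.38 to 3.66 in controls and 2.78 to 3.88 with Klf4. They are mostly Cd4, which alone read 1.80 to 3.22 and 2.05 to 3.33. Of 5 tested endothelial markers, Esam and Tek were higher, Tek by 2.38. The probe of Esam was well above background on 0 controls and 3 Klf4-labelled arrays, so it entered the test through the latter alone. Cdh5, Kdr and Vwf changed by -0.01, 0.03 and 0.13. The sums were 6.63 to 6.89 in controls and 6.55 to 7.33 with Klf4. They are mostly Kdr, which alone read 6.55 to 6.83 and 6.43 to 7.27. Of 6 tested pericyte and fibroblast markers, Cspg4 and Col1a1 were higher, by 1.62 and 1.36, with sums of 2.06 to 2.30 and 2.93 to 3.22 and Lum not well above background on any array. The other changes in this list include Pdgfrb at -0.86, Col1a2 at -0.47 (lower at an unadjusted p under 0.05) and Col3a1 at -0.17, and the median is -0.07. Among 4 tested astrocyte markers S100b was called higher, from a probe well above background on 2 controls and all 4 Klf4-labelled arrays. It too met the filter on the latter alone. The other 3 changes were between -0.40 and -0.09. The sums over the 4 markers with a value on every array were 1.77 to 2.90 and 1.64 to 2.87. They are mostly Aldoc, which alone read 1.67 to 2.84 and 1.41 to 2.77. Of 2 tested pigment epithelium markers and 5 tested red blood cell markers 0 were called (1 lower and 1 higher at an unadjusted p under 0.05); Tyr, Tyrp1, Mlana and Hbb were not well above background on any array. The part of these cells in the changes of the members was not tested.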

How the data were processed

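RNA of 8 samples was hybridised to one-colour Agilent arrays on 1 slide. Per the file headers, Feature Extraction 10.7.3.1 made the deposited processed signal, a background-subtracted intensity per spot. The authors also deposited a table of log2 values, used as an alternative; each column has a median of 7.54, how they were normalized is not stated, and it correlates with the matching array at 0.994 or more.

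Control and outlier spots were left out, spots of a probe averaged, and log2 intensity scaled by the 75th percentile, with no covariate. Probes well above background on 3 of 4 arrays of a group were kept, and the kept probe of highest mean stood for its gene. A symbol was given to 21109 probes and none to 24489. Differences were tested with limma 3.58.1 in R 4.3.3 over 29988 features, two-sided, with Benjamini-Hochberg adjustment at 0.05. The procedure was tested on simulated data. All members are named, with the called genes of the other pathway lists and Jak1, Jak2, Tyk2 and the interferon receptors; 1 further gene of this rule is not reported here. The members and lists were chosen with earlier results of these data known. Alternatives changed the scaling, background correction, filter, probe choice, source of values, blocks, weights and arrays used.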

Additional observations from a re-analysis of the deposited data

Results flagged for a closer look

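Psmb9 on Klf4 replicate 4 stood apart from the other arrays of its group. It read -2.91, while the nearest of the other arrays read -2.01 and the farthest -1.85. The gap to the nearest was 0.849 of the group's whole range, above Dixon's 95% critical value for 4 samples. This screen covered 54 sets of 4 arrays (27 members in 2 groups), and chance alone flags about 1 in 20.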

How the results depend on the processing

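Across 21 alternatives, Bst2, Oasl and Irf1 stayed called in all, and no called member changed sign; 9 uncalled members, of at most 0.38 in size, did. Of 22 uncalled members 18 never passed. Members called higher ranged from 3 in the first scan alone to 9 with array weights, which added Gbp2, Isg15, Irf7 and Psmb10. Gbp2 also passed with quantile normalization (adjusted p = 0.0378), the authors' deposited log2 values (0.0397), slide row as a block (0.0346) and without Klf4 replicate 4 (0.0183). Psmb9 missed the threshold in 12 alternatives, with adjusted p of 0.0524 to 0.157. Other pathway genes called higher numbered 4 without a filter on dim probes, 2 in the first scan, 16 with array weights and 2 to 8 with single arrays left out; called lower, 1 with array weights and 0 to 1 with single arrays left out. Over all features, 961 higher and 140 lower became 628 and 47 in the first scan, 1846 and 1269 with array weights, and 602 to 1217 and 32 to 406 with single arrays left out. The lower calls became 93 with array median scaling, 70 without the filter and 255 with scan as a block. Higher calls were 87.3% of all calls, against 59.3% with array weights. The causes were not tested.

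The replicate number as a block called 4 members (Bst2, Irf1, Oasl and Psmb8), 842 features higher and 101 lower. Psmb9, RT1-CE5 and Irgm were then at limma adjusted p of 0.103, 0.130 and 0.0548. Deviations of same-numbered samples correlated at 0.35, 0.22, 0.07 and 0.56. These were the best values for controls 2, 3 and 5, while control 4 correlated best with Klf4 2 (0.20). The labels state no pairing, and the main fit uses none. Normexp on spot means was not run, since the spot medians were used instead, a choice made after seeing the data. Dim probes limit Oasl, Gbp2, Tlr3 and Irgm.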
